A study of Mus musculus with 27 samples.

Results

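The genes described here are those of the PDGF ligands Pdgfa, Pdgfb, Pdgfc and Pdgfd, the PDGF receptors Pdgfra and Pdgfrb, the EGF-type ligands Hbegf, Areg and Ereg, and the EGF receptor Egfr. They were chosen by name, through the RefSeq accession that each probe carries, and make up 10 of the 37208 genes or transcripts on the array. All were measured in cells of a single mouse ESC line with a DOX-inducible, Flag-tagged dominant-negative FOS (dnFOS) cassette in the Hprt locus. The dnFOS peptide binds JUN proteins and keeps AP-1 dimers off DNA, so that adding DOX inhibits AP-1. Every group carried this cassette, and the ESCs had been grown on mouse embryonic feeder cells before differentiation. The 13 groups hold 27 arrays, 2 a group apart from 3 for untreated SM. Untreated FLK1+ cells, labelled as hemangioblast, were the starting population. The FLK1+ 5h and d1 BC groups were complete blast cultures, collected with or without 1 µg/ml DOX for 5 h or 1 day. The SM (smooth muscle), HE1, HE2 and HP groups were sorted from cultures with or without 2 days of DOX. HE1 and HE2 are stages of hemogenic endothelium, gated on KIT and TIE2 without (HE1) or with (HE2) CD41, and HP are hematopoietic progenitors, gated as TIE2- but positive for KIT and CD41.

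PDGF ligands are secreted dimers that activate the receptor tyrosine kinases PDGFRα and PDGFRβ. PDGF-A and PDGF-C act mainly through PDGFRα and PDGF-B mainly through PDGFRβ, and PDGF-B made by endothelial cells recruits PDGFRβ-bearing mural cells, the pericytes and smooth muscle cells of vessels. HB-EGF, amphiregulin and epiregulin are made as membrane-bound precursors, are released by proteases and activate EGFR. Pdgfra also marks paraxial and cardiac mesoderm, whereas FLK1 marks the mesoderm that gives rise to blood and vessels.

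Levels are given as log2 of the processed signal of a probe minus log2 of the 75th percentile of its array, so that 0 is the level that 25% of the probes exceed. They can be compared between arrays for 1 probe, and not between genes. Differences were tested with limma across all genes, and a gene was called at an adjusted p under 0.05 and at least 2-fold. Unless another setting is named, calls come from this scaling, all arrays and no block. Normexp background correction, an alternative, was run with an offset that adds 50 to every signal, which shrinks differences between dim signals. The 75th percentile ranged from 78.8, on untreated HE2 replicate 1, to 732, and between 48.0% and 89.7% of probes lay well above background. Replicates of a group correlated at 0.911 to 0.97 over all probes. The labels do not say that replicates were separate differentiations, so p-values then measure only the spread between these samples, which may be technical. The number of arrays limits the precision. Hprt, where the cassette lies, was higher on every DOX array than on the untreated arrays of its population and by 2.80 (SE 0.23) in the mean over the 6 populations (limma, adjusted p = 7.4e-06).

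The population labels were checked against marker genes. The smooth muscle list (Acta2, Tagln, Cnn1, Myh11, Myl9 and Des), summed on the linear scale relative to the 75th percentile, reached 838 to 1790 in SM and 1010 to 1560 in d1 BC, against 227 and 512 in HE1, 48.9 and 49 in HE2 and 42.3 and 223 in HP. HP replicate 2 was thus close to HE1 replicate 2 in these markers, and HP DOX was as uneven, at 63.2 and 207. The endothelial list summed to 76.7 to 151 in HE1. On the arrays of SM replicate 2 and SM DOX replicate 2, which lie on the same slide, it summed to 63.9 and 65.5, against 9.15 to 13.3 on the other SM arrays, and the differences with DOX in SM and those printed for SM against HE1 are also given without these 2 arrays, a setting chosen after seeing the data. The 3 SM arrays that this setting keeps stood apart in other markers: the pluripotency list summed to 10.3 to 18.5 on them, against 0.463 and 0.779 on the 2 left out and 1.55 to 2.26 in HE1, and the erythroid list to 146 to 352, against 48 and 57.1. The part of these markers in the results was not tested. Transcripts of the sorting marker CD41 (Itga2b) read 3.63 and -0.16 on the arrays of HE2 DOX replicates 1 and 2, and 1.16 and 0.69 in untreated HE1, which was sorted as CD41-. They read 0.30 on the array of HP DOX replicate 1, and 2.45 to 3.58 on the other HE2 and HP arrays. HE2 DOX replicate 2 and HP DOX replicate 1 were thus below untreated HE1 for a marker that their gates required. Tek, which encodes TIE2, read -0.96 on the array of HE2 DOX replicate 2 and 0.02 on that of HE1 DOX replicate 2, both gated as TIE2+, against 2.04 and 2.56 in untreated HE1 and 0.76 and 2.14 in untreated HE2. Both arrays thus lay below the HP replicate 1 array (0.41), which was sorted as TIE2-.

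Of the 10 genes, 7 could be tested. Ereg was well above background on 0 of 27 arrays, and Pdgfd and Areg were well above background on 4 each. For Pdgfd these were 1 FLK1+ array at -4.18, SM replicate 2 at -1.96, HE1 replicate 2 at -1.60 and HE1 DOX replicate 2 at -4.55. The Pdgfd probe was thus brightest on 1 SM and 1 HE1 array, while the other array or arrays of the same groups did not measure it. SM replicate 2, which also measured Areg, had 89.7% of probes well above background, the highest of all arrays, with 75.3% on the next. For Areg the arrays were FLK1+ 5h replicate 2 at -4.57, SM replicate 2 at -4.04, FLK1+ 5h DOX replicate 1 at -4.28 and SM DOX replicate 2 at -4.07. No group had Pdgfd, Areg or Ereg above background on all its arrays.

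Because dnFOS blocks binding of AP-1 to DNA, the promoters of the genes were searched for its site. The 250 bases before the transcription start were taken from RefSeq (GRCm38.p6) for the 6 genes with a window, Pdgfa, Pdgfc, Pdgfd, Pdgfra, Areg and Egfr. Pdgfb, Pdgfrb, Hbegf and Ereg had no window in the set used, which left out a chromosome, and their promoters were not searched. The AP-1 site TGACTCA, read on both strands, was in none of their windows and in 4.46% of 32817 promoter windows of that length. The CRE TGACGTCA was in the Areg window, 61 bases before the start, and in 1.55% of all windows, and the TEAD motif GGAATG was in the Pdgfc window, 137 bases before the start, and in 12.6% of all windows. A match describes the letters only, and no match says only that these letters are not in this window. The windows of Pdgfc (chr3:81036166-81036415, plus strand), Egfr (chr11:16751953-16752202, plus strand) and Pdgfra (chr5:75152001-75152250, plus strand) are printed 5′ to 3′ because the levels of Pdgfc and Egfr ran most closely together and Pdgfra ran apart from them in the first hours of blast culture; capitals mark the TEAD motif.
Pdgfc: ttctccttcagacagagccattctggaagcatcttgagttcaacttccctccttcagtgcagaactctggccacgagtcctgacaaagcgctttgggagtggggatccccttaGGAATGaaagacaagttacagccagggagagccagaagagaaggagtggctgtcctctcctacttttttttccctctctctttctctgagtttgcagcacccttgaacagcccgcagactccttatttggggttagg
Egfr: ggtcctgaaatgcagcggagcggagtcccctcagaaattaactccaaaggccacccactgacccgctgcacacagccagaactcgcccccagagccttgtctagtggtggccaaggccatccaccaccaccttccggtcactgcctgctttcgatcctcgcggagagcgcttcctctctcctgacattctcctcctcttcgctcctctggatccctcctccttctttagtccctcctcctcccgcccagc
Pdgfra: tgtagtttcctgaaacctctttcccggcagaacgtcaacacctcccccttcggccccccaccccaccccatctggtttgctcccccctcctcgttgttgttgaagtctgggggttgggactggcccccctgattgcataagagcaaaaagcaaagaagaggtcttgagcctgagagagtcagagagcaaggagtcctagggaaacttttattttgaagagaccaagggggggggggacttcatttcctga

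The 7 untreated populations show how these genes vary along the differentiation from FLK1+ cells to smooth muscle or to blood. Levels differed among them for 6 of the 7 genes tested, all but Pdgfb (limma moderated F), where 17.9% of the 27465 genes tested differed. The ranges between the lowest and the highest group mean were 7.35 for Pdgfra, 6.77 for Pdgfa, 6.43 for Pdgfrb, 5.00 for Hbegf, 4.39 for Pdgfc and 4.06 for Egfr, on the log2 scale. Pdgfra, Pdgfrb and Hbegf had their lowest means in HE2, and Pdgfc, Pdgfrb and Egfr were highest in SM, although the SM arrays overlapped those of d1 BC for all 3. In these bulk samples fewer cells of a type and less RNA per cell cannot be told apart.

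**Figure D1:**
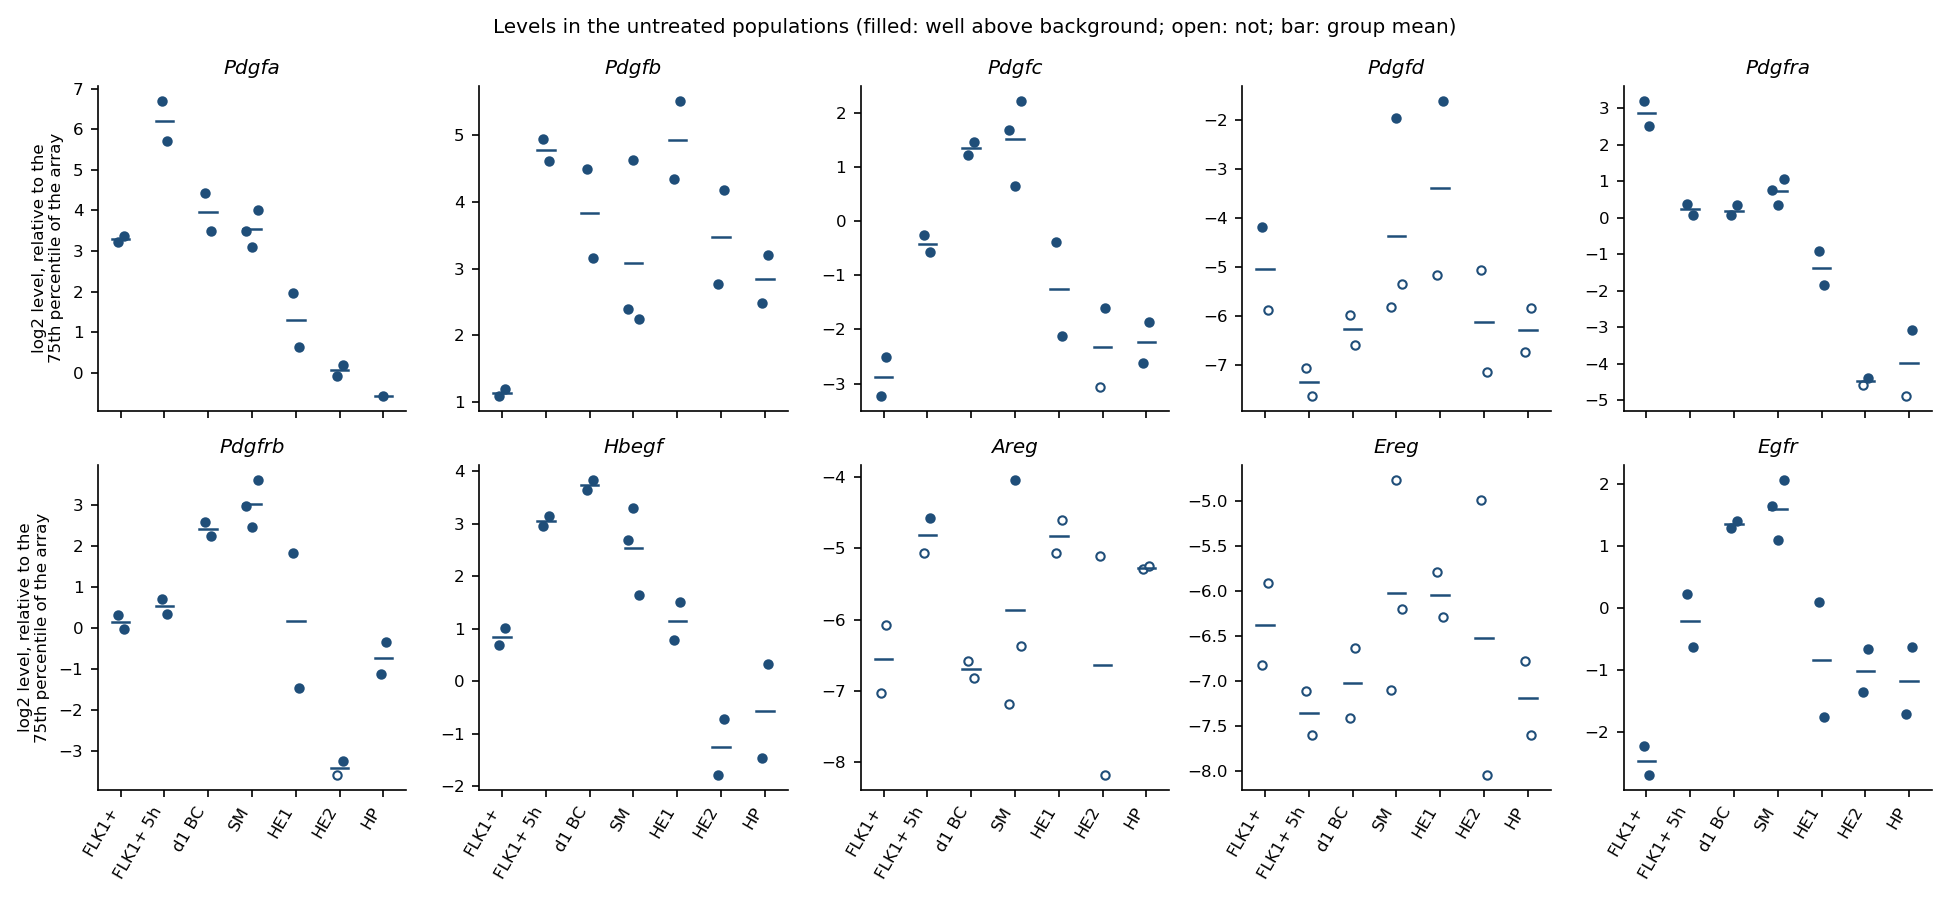
Level of each of the 10 genes on every array of the 7 untreated populations, in log2 relative to the 75th percentile of the array. Points are arrays, filled where the probe was well above background and open where it was not, and bars are group means. Pdgfa peaked in FLK1+ 5h at 6.70 and 5.70, Pdgfra was highest in FLK1+ cells at 3.21 and 2.53, and Pdgfd, Areg and Ereg were mostly not above background.

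Pdgfa, which encodes the PDGF-A chain, rose 7.45-fold from FLK1+ cells to 5 h of blast culture. It read 3.23 and 3.37 in FLK1+ cells, 6.70 and 5.70 in FLK1+ 5h, and 4.42 and 3.50 in d1 BC. In the sorted populations it read 3.50, 3.09 and 4.01 in SM, 1.96 and 0.64 in HE1, -0.08 and 0.19 in HE2 and -0.57 in HP, where 1 of the 2 spots was an outlier and was dropped. All arrays of FLK1+ 5h thus lay above those of every other untreated population, d1 BC overlapped with SM and SM with FLK1+, and HE1 lay below SM and above HE2. The step from FLK1+ to FLK1+ 5h was 2.90 (SE 0.74, limma adjusted p = 0.0446), and on the slide that holds arrays of both groups it was 2.39. Its call was lost in 17 of 43 other settings, among them leaving out either FLK1+ array or either FLK1+ 5h array (2.39 to 3.4, adjusted p = 0.0568 to 0.494). The differences of -2.24 (SE 0.74, adjusted p = 0.198) from FLK1+ 5h to d1 BC and of -2.65 (SE 0.74, adjusted p = 0.062) from d1 BC to HE1 were not called. The levels over the 7 populations differed at an adjusted p of 4.87e-05, and the other probe of the gene followed this one at r = 1.00 over the 26 arrays that both measured. On that probe HP read -0.51 and 1.03, which overlapped with HE2 and HE1, and the difference from HE2 to HP was 0.17, against -0.63 with the probe used.

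Pdgfb encodes the PDGF-B chain, the ligand with which endothelial cells attract mural cells. It read 1.09 and 1.20 in FLK1+ cells, 4.94 and 4.62 in FLK1+ 5h and 4.50 and 3.16 in d1 BC. It then read 2.40, 4.63 and 2.25 in SM, 4.35 and 5.52 in HE1, 2.77 and 4.18 in HE2, and 2.49 and 3.21 in HP. With the probe used, FLK1+ cells lay below every other population, HE1 and FLK1+ 5h overlapped at the top, and the high SM array was replicate 2, the one with the high endothelial markers. The difference between FLK1+ and FLK1+ 5h was 3.64 (SE 1.10, adjusted p = 0.0936) and was not called with this probe, although 10 of 42 other settings called it. The other Pdgfb probe, which followed it at only r = 0.39 over the 27 arrays, gave 3.18 (SE 0.84, adjusted p = 0.0484), which was called. With that other probe FLK1+ (-3.05 and -1.42) overlapped with SM, HE1, HE2 and HP. FLK1+ 5h (1.02 and 0.87) lay above HE1 (-2.48 and -0.47) there. The test over the 7 populations gave an adjusted p of 0.147. Unlike the other 6 genes tested, Pdgfb was not lower in HE1 than in d1 BC or SM with the probe used. It was higher by 1.11 (SE 1.10, adjusted p = 0.63) and by 1.84 (SE 1.01, adjusted p = 0.725), with arrays that overlapped. Without the 2 SM arrays the latter was 2.61 (adjusted p = 0.0501), and with the other probe it was 0.54 (limma adjusted p = 0.943). From d1 BC to HE1, which shared no slide, Pdgfb was lower with the other probe (-0.38) and with the slide as a fixed block (-0.65).

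Pdgfc encodes PDGF-C, a latent ligand that is activated by tissue plasminogen activator. It was low in FLK1+ cells, at -3.23 and -2.51, and read -0.26 and -0.56 in FLK1+ 5h and 1.23 and 1.47 in d1 BC. In SM it read 1.69, 0.65 and 2.23, in HE1 -0.38 and -2.12, in HE2 -1.60 and a value not well above background (-3.07), and in HP -2.62 and -1.86. SM and d1 BC overlapped at the top, FLK1+ 5h lay below both, and HE1, HE2, HP and FLK1+ overlapped with at least 1 neighbour each. Pdgfc fell 6.06-fold from d1 BC to HE1 (log2 difference -2.60, SE 0.70, limma adjusted p = 0.0482), a call that was lost in 25 of 42 other settings and without HE1 replicate 2 (-1.73, adjusted p = 0.388) or either d1 BC array. The 2 groups shared no slide. Between SM and HE1, which shared 2 slides, the difference was -2.77 (SE 0.64, adjusted p = 0.0562), and within the slides -2.60 and -2.76. Without the 2 SM arrays with high endothelial markers it was -3.21 (adjusted p = 0.0091) and was called. The preceding differences, of 2.46 (SE 0.70, adjusted p = 0.0678) from FLK1+ to FLK1+ 5h and of 1.76 (SE 0.70, adjusted p = 0.333) from there to d1 BC, were not called. The test over the populations gave an adjusted p of 0.000113.

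Pdgfra encodes the receptor for PDGF-A and PDGF-C. In FLK1+ cells it read 3.21 and 2.53, its highest levels, and in FLK1+ 5h it read 0.38 and 0.09. It stayed between 0.07 and 1.07 in d1 BC (0.07 and 0.34) and SM (0.77, 0.34 and 1.07), and read -0.90 and -1.84 in HE1. In HE2 it read -4.38 and -4.58 and in HP -3.08 and -4.88, and in each of these the lower array was not well above background. Pdgfra thus fell at the step at which Pdgfa rose, by 6.18-fold (log2 difference -2.63, SE 0.62, limma adjusted p = 0.0267; -2.77 within the shared slide). It fell again from HE1 to HE2, by 8.64-fold (log2 difference -3.11, SE 0.62, adjusted p = 0.00877; -3.68 and -2.54 within the 2 shared slides). At the same step the summed mesenchyme markers were 40.8 and 78.1 in HE1 and 3.38 and 4.9 in HE2, and the smooth muscle markers were lower too (227 and 512 against 48.9 and 49). From FLK1+ to FLK1+ 5h the smooth muscle markers went from 79.8 and 98.5 to 454 and 771. The endothelial markers went from 15.4 and 23 to 3.91 and 7.54, and the pluripotency markers from 19 and 23.4 to 8.01 and 12. The part of these markers in the falls of Pdgfra and Pdgfrb and in the rise of Pdgfa was not tested. The first call was lost in 7 of 42 other settings, leaving out any of the 4 arrays included (-2.29 to -2.97, adjusted p = 0.0585 to 0.242). The other was lost in 6 of 41, without HE1 replicate 1 (-2.64, adjusted p = 0.168), without HE2 replicate 1 (-3.01, adjusted p = 0.09) and with normexp background correction (-1.28, adjusted p = 0.533). Normexp adds 50 to every signal, beside a 75th percentile of 78.8 on HE2 replicate 1, so it shrinks this difference by design. Between SM and HE1 the difference was -2.10 (adjusted p = 0.0933) and was not called, but it was called without the 2 SM arrays with high endothelial markers (-2.29, adjusted p = 0.0425). Over the 7 populations the adjusted p was 7.6e-07, the smallest of the 7 genes tested.

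Pdgfrb encodes the receptor for PDGF-B that marks pericytes and smooth muscle cells. Its levels were 0.32 and -0.02 in FLK1+ cells, 0.72 and 0.34 in FLK1+ 5h and 2.60 and 2.26 in d1 BC. In the sorted populations they were 2.97, 2.48 and 3.62 in SM, 1.83 and -1.47 in HE1, -3.23 and a value not well above background (-3.58) in HE2, and -1.12 and -0.34 in HP. SM and d1 BC overlapped at the top, HE2 lay below every other population, and the HE1 arrays lay so far apart that replicate 1 lay above and replicate 2 below all FLK1+ arrays. The same HE1 array, replicate 1, had the higher summed smooth muscle markers (512 against 227) and mesenchyme markers (78.1 against 40.8), whose part in the result was not tested. Pdgfrb fell 12-fold from HE1 to HE2 (log2 difference -3.58, SE 0.78, limma adjusted p = 0.0173), where 1 of the 2 HE2 arrays measured it well above background. Within the shared slides the difference was -5.41 and -1.76, and without HE1 replicate 1 it was -1.93 (adjusted p = 0.322), so that the size of the difference rested on that array. The call was lost in 7 of 41 other settings, among them normexp background correction (-2.04, adjusted p = 0.157) and leaving out HE2 replicate 1 (adjusted p = 0.156) or replicate 2 (adjusted p = 0.0637). The offset of the normexp correction raises the dim HE2 levels and so shrinks this fall by design. From HE2 to HP Pdgfrb was higher by 2.67 (SE 0.78, adjusted p = 0.43), with no overlap, and by 2.46 and 2.89 within the slides. The smooth muscle markers summed to 48.9 and 49 in HE2 and to 42.3 and 223 in HP, and the mesenchyme markers to 4.9 and 3.38 against 4.64 and 11.1, in the order of the replicates; their part in this difference was not tested. Between SM and HE1 the difference was -2.84 (SE 0.72, adjusted p = 0.0773) and was not called, but it was called without the 2 SM arrays with high endothelial markers (-3.12, adjusted p = 0.0398). The test over the populations gave an adjusted p of 6.75e-05.

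Hbegf encodes HB-EGF, a growth factor for smooth muscle cells. It read 0.68 and 1.02 in FLK1+ cells, 2.95 and 3.15 in FLK1+ 5h and 3.64 and 3.84 in d1 BC. It read 2.69, 3.30 and 1.64 in SM, 0.78 and 1.51 in HE1, -1.79 and -0.72 in HE2 and -1.47 and 0.33 in HP. The d1 BC arrays were the highest, those of FLK1+ 5h and SM overlapped below them, HE1 and FLK1+ overlapped next, and HE2 and HP overlapped at the bottom. No step of Hbegf was called in the setting described above. The largest were -2.60 from d1 BC to HE1 (SE 0.75, adjusted p = 0.0681), -2.40 from HE1 to HE2 (SE 0.75, adjusted p = 0.122) and 2.20 from FLK1+ to FLK1+ 5h (SE 0.75, adjusted p = 0.145). Within the slides that the groups shared, the last of these was 2.30 and the step from HE1 to HE2 was -2.57 and -2.23. Of 42 other settings, 12 called the first, 6 the second and 5 the last, among them normexp background correction (-2.69, adjusted p = 0.0088) for the first and the authors' processed values for the first (-2.48, adjusted p = 0.0274) and the second (-2.67, adjusted p = 0.0199). With the slide as a fixed block all 3 were called, at -3.26 (adjusted p = 0.035), -2.40 (adjusted p = 0.00374) and 2.30 (adjusted p = 0.0409) in the order above. The groups of the first, d1 BC and HE1, shared no slide, so that estimate rests on other groups that link the slides. The levels over the 7 populations differed at an adjusted p of 0.000269.

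Egfr encodes the receptor for HB-EGF, amphiregulin and epiregulin. Its levels were -2.23 and -2.70 in FLK1+ cells, 0.22 and -0.64 in FLK1+ 5h and 1.29 and 1.39 in d1 BC. They were 1.63, 1.09 and 2.06 in SM, 0.09 and -1.77 in HE1, -1.36 and -0.67 in HE2 and -1.72 and -0.64 in HP. FLK1+ cells lay below all other populations, SM and d1 BC overlapped at the top, and the 3 blood-forming populations overlapped with each other. No step was called in the setting described above: the largest were -2.43 from SM to HE1 (SE 0.58, adjusted p = 0.0619; -1.97 and -2.86 within the shared slides, and called at -2.69, adjusted p = 0.0249, without the 2 SM arrays with high endothelial markers), 2.26 from FLK1+ to FLK1+ 5h (SE 0.63, adjusted p = 0.0629) and -2.18 from d1 BC to HE1 (SE 0.63, adjusted p = 0.0684). Of 44 other settings, 9 called the first of these, 4 the second and 6 the last, among them the authors' processed values for the first (-2.53, adjusted p = 0.0136) and the last (-2.26, adjusted p = 0.0251). The other Egfr probes, matched to another transcript of the gene, followed this one at r = 0.63 and 0.69 and gave smaller differences, of 1.00 and 0.27 from FLK1+ to FLK1+ 5h and of -1.43 and -0.20 from d1 BC to HE1, and from SM to HE1 of -1.90 (adjusted p = 0.295) and -0.69 (adjusted p = 0.873). Over the populations the adjusted p was 0.000367.

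**Figure D2:**
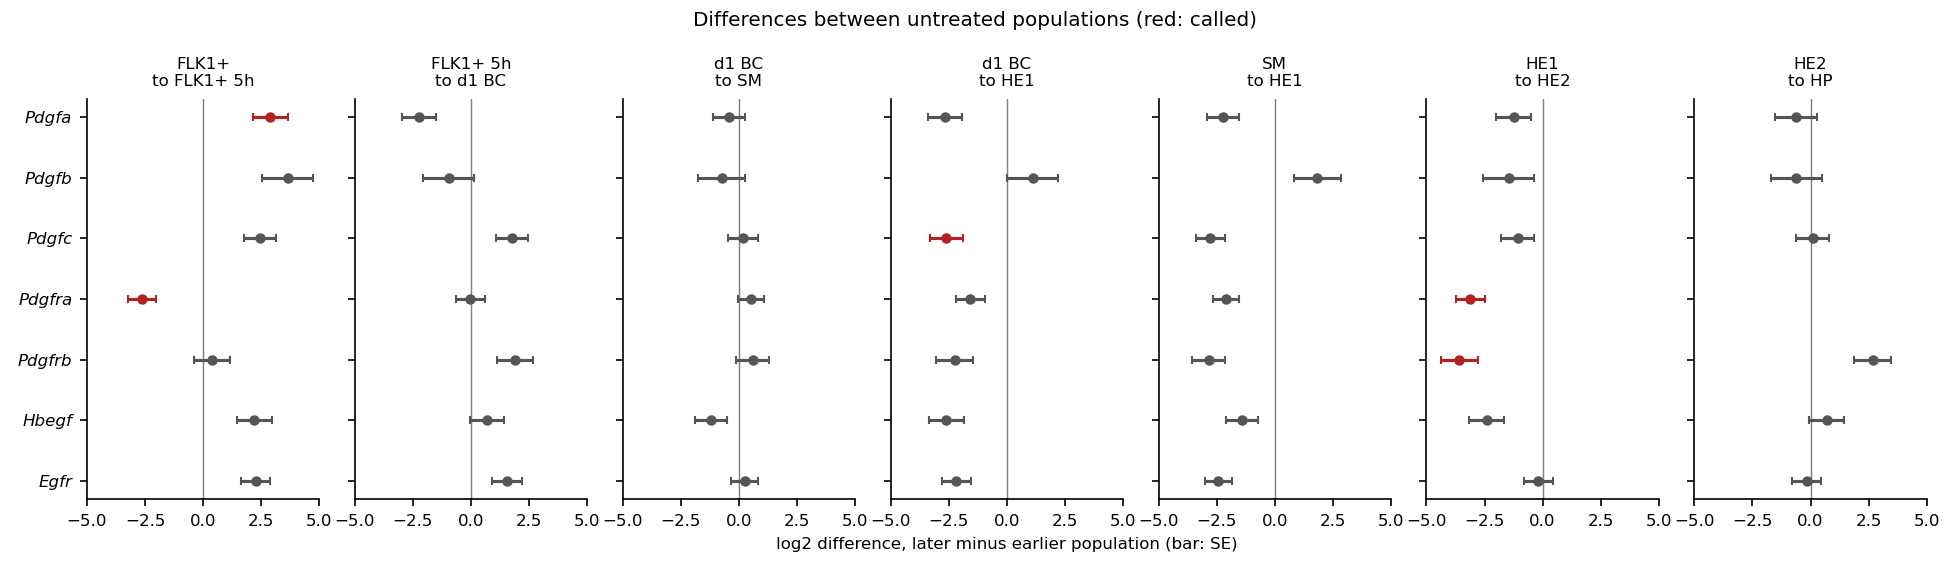
Log2 difference, later minus earlier untreated population, for the 7 genes tested in 7 steps, with the standard error as a bar and called differences in red; Pdgfra was not tested from HE2 to HP and has no point there. From FLK1+ to FLK1+ 5h Pdgfa lay at 2.90 and Pdgfra at -2.63, and from d1 BC and from SM to HE1 Pdgfb is the only gene to the right of 0.

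Counted by step, 2 of the 7 genes were called from FLK1+ to FLK1+ 5h, where 2.72% of all genes tested were called, and 0 of 7 from FLK1+ 5h to d1 BC, where 1.43% were called. At an unadjusted limma p under 0.05 from FLK1+ 5h to d1 BC were 4 members and 10.6% of all genes. From d1 BC to SM 0 of 7 were called, 0 had an unadjusted p under 0.05, and of all genes 0.255% were called and 5.91% had an unadjusted p under 0.05. Without the 2 SM arrays with high endothelial markers, 0 of 7 were called at that step, 2 (Pdgfb and Hbegf) had an unadjusted p under 0.05, as did 1347 of 23146 genes, and 0.346% of all genes were called. From d1 BC to HE1 1 of 7 was called against 3.17% of all genes, and between SM and HE1 0 of 7 against 0.543%, with 5 members and 8.57% of all genes at an unadjusted p under 0.05. Without the 2 SM arrays with high endothelial markers, 4 of 7 (Pdgfc, Pdgfra, Pdgfrb and Egfr) and 3.47% of all genes were called between SM and HE1. From HE1 to HE2 2 of 7 were called against 2.33%. From HE2 to HP 0 of 6 were called against 0.00395%, and 1 member, Pdgfrb, and 5.97% of all genes had an unadjusted p under 0.05. The median log2 difference of the 7 genes was 2.26 from FLK1+ to FLK1+ 5h, beside -0.20 for all genes tested, and -2.25 from d1 BC to HE1, beside 0.08. These counts carry the filter with them, since a gene entered a step when 1 of its groups measured it. All 7 genes had arrays that did not overlap from FLK1+ to FLK1+ 5h, as did 59.6% of all genes tested, and 6 of 7 between SM and HE1, as did 23.9%. The counts were 6 of 7 from FLK1+ 5h to d1 BC (46% of all genes), 1 of 7 from d1 BC to SM (22.9%) and 6 of 7 from d1 BC to HE1 (59.4%). They were 5 of 7 from HE1 to HE2 (32.7%) and 2 of 6 from HE2 to HP (30.1%).

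Over the means of all 13 groups, which share slides, Pdgfc and Egfr ran most closely together of the 7 genes tested (r = 0.91), followed by Pdgfa and Hbegf (r = 0.88) and Pdgfc and Hbegf (r = 0.83). Pdgfb correlated at 0.09 with Pdgfa and at 0.06 with Pdgfc. Among 16381 genes with a symbol, the genes most like Hbegf were Fhl2 (r = 0.986), Acta1 (0.977) and Atp1b1 (0.975), and those most like Pdgfra were Cdh11 (0.975), Tpd52l1 (0.973) and Acot1 (0.969). Those most like Pdgfa were Mthfsd (0.972), Rasef (0.971) and Tead4 (0.969), and those most like Pdgfc were Aff2 (0.964), Ddc (0.959) and Dkk2 (0.952). Prkx (0.956), Cav2 (0.901) and Plec (0.901) were most like Pdgfb, Plxnb2 (0.933), Tspan33 (0.933) and Pitx1 (0.931) most like Pdgfrb, and Prkci (0.914), Xpnpep2 (0.907) and Cul4b (0.906) most like Egfr. These correlations, over 13 group means, are descriptions and hold for the probe used of each gene. Over the arrays the other Egfr probes followed the probe used at r = 0.63 and 0.69, and the other Pdgfb probe at 0.39.

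The comparison of cells with and without DOX asked whether these genes changed when AP-1 was inhibited. None of the 7 genes tested was called in any of the 6 populations, in the mean over all 6 or in the mean over SM and HE1. With the probes used and all arrays, the largest differences in a single population were in Pdgfc in SM (-1.66), Pdgfb in d1 BC (-1.56) and Pdgfrb in HE2 (1.46) and HP (1.40), on the log2 scale. Pdgfra was higher with DOX in 6 of 6 populations, though at FLK1+ 5h its difference turned to the other side with median scaling and without FLK1+ 5h DOX replicate 1, and in HP without HP replicate 1.

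With limma, 0 of the 7 genes were called at FLK1+ 5h, where 0% of the 23780 genes tested were called. There 0 members and 5.2% of all genes had an unadjusted p under 0.05. In d1 BC the same counts were 0 called, beside 0% of 23972, and 0 at an unadjusted p under 0.05, beside 1.44% of all genes. In SM 0 were called, beside 0.0084% of 23821, and 1 member (Pdgfc) and 2.6% of all genes had an unadjusted p under 0.05. In HE1 the counts were 0 called, beside 0% of 23201, and 0 at an unadjusted p under 0.05, beside 1.16% of all genes. In HE2 they were 0 called, beside 0% of 24086, and 1 member (Pdgfra) and 8.35% of all genes at an unadjusted p under 0.05. In HP they were 0 called, beside 0.0318% of 25124, and 0 at an unadjusted p under 0.05, beside 3.47% of all genes. For the mean over 6 populations 0 were called, beside 0.166% of 28305 genes, and 2 members (Pdgfra and Pdgfc) and 7.83% of all genes had an unadjusted p under 0.05. For the mean over SM and HE1 0 were called, beside 0.0278%, and 1 member (Pdgfc) and 3.84% of all genes had an unadjusted p under 0.05. The differences with DOX were not found to vary between the populations for any of the 7 genes (limma moderated F, 0 called and 0 at an unadjusted p under 0.05). Of all genes tested 0% were called by this test and 1.9% had an unadjusted p under 0.05. Over all genes the number of calls with DOX depended on the setting: in HP it was 8 here, 31 with quantile normalization and 136 with the authors' processed values, and in SM it was 2, 11 and 18. Over the members it was 0 in each of these, and a p that misses the threshold does not show that these genes were unchanged.

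**Figure D3:**
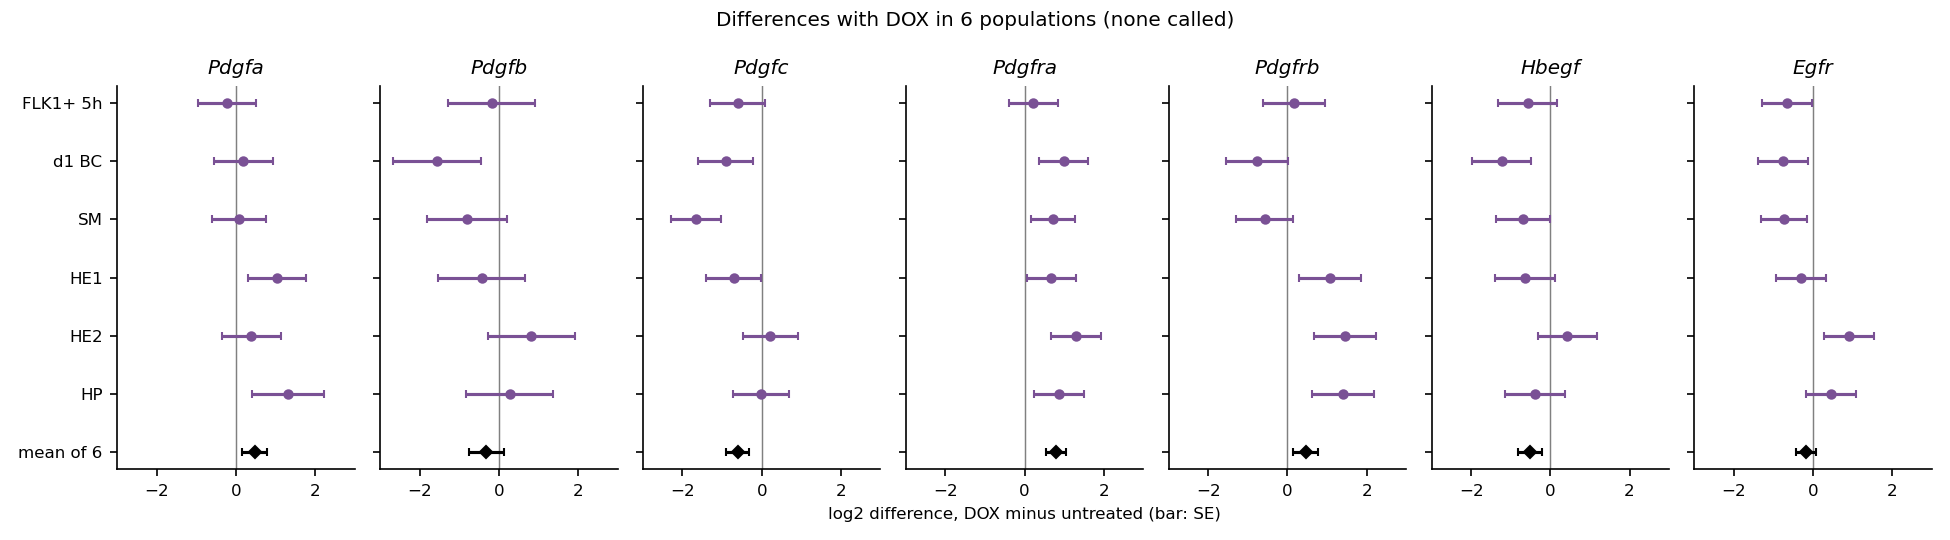
Log2 difference, DOX minus untreated, of the 7 genes tested in each of 6 populations (points) and in their mean (diamonds), with the standard error as a bar. The Pdgfra points lie to the right of 0 in all 6 populations, from 0.22 to 1.30, and the Pdgfc points to the left in 5, down to -1.66; none was called.

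Pdgfc in SM read 1.69, 0.65 and 2.23 without and 0.43 and -0.71 with DOX, so that every DOX array lay below every untreated one. The same held in d1 BC (1.23 and 1.47 against 0.56 and 0.32) and at FLK1+ 5h (-0.26 and -0.56 against -1.37 and -0.68). In HE1 it read -0.38 and -2.12 against -2.10 and -1.80, in HE2 -3.07 and -1.60 against -2.53 and -1.69, and in HP -2.62 and -1.86 against -2.88 and -1.64, with arrays that overlapped in each. The signs in HE2 (0.22) and HP (-0.02) turned with normexp background correction, which adds 50 to every signal. The difference in SM was -1.66 (SE 0.64), 3.16-fold, at an unadjusted limma p of 0.0175 and an adjusted p of 0.999. It was -1.35 and -1.26 within the 2 slides shared, and -1.53 (adjusted p = 1) without the 2 SM arrays with high endothelial markers. In d1 BC the difference was -0.91 (-0.67 and -1.15 within the slides), and in HE1 -0.71 (-1.73 and 0.31), where it turned to 0.16 without HE1 replicate 1. At FLK1+ 5h it was -0.61, and only -0.11 within the slide that both groups shared. The arrays of replicate 1 lay on different slides there. The mean over SM and HE1 was -1.18 (SE 0.47, adjusted p = 0.936; -1.12 without those 2 SM arrays), and over the 6 populations -0.61 (SE 0.28, adjusted p = 0.622). The summed mesenchyme markers were also lower with DOX, at 11 to 13.9 against 29 to 34.5 in d1 BC, 79 to 135 against 151 to 182 in SM and 22 to 40.5 against 40.8 to 78.1 in HE1, and their part in the result was not tested.

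**Figure D4:**
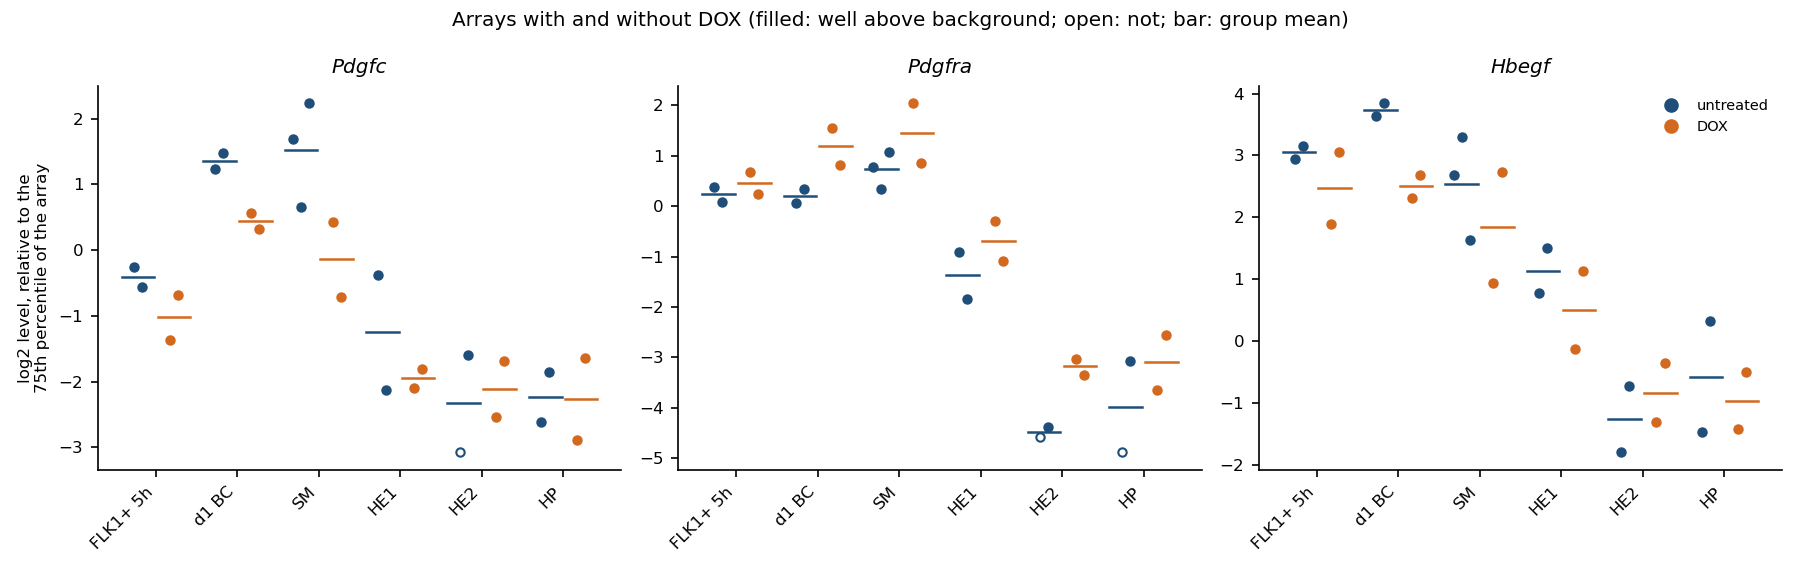
Levels of Pdgfc, Pdgfra and Hbegf on every array with (orange) and without (blue) DOX, in log2 relative to the 75th percentile of the array. Open points were not well above background and bars are group means. In d1 BC the DOX arrays of Pdgfc (0.56 and 0.32) and Hbegf (2.32 and 2.69) lay below the untreated ones and those of Pdgfra (1.56 and 0.82) above them.

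Pdgfra, the receptor, differed the other way. With DOX it read 0.68 and 0.24 at FLK1+ 5h, 1.56 and 0.82 in d1 BC, 2.04 and 0.86 in SM, -0.30 and -1.09 in HE1, -3.03 and -3.34 in HE2 and -3.64 and -2.56 in HP. All DOX arrays lay above the untreated ones in d1 BC and HE2, and the groups overlapped in the other 4 populations. The differences were 0.22, 0.99, 0.72, 0.67, 1.30 and 0.87 in the same order, and those within slides were above 0 in all 11 pairs of arrays. That of HE2, 1.30 (SE 0.62), had an unadjusted limma p of 0.0493 and an adjusted p of 0.568, with 1 of the 2 untreated arrays not well above background. It was 1.45 (adjusted p = 1) without HE2 DOX replicate 2, the array with little Itga2b, and 0.11 with normexp background correction. The offset of that correction shrinks differences between levels as dim as these. The mean over the 6 populations was 0.80 (SE 0.25, unadjusted p = 0.00481, adjusted p = 0.35), beside a median of 0.14 over all genes tested.

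Pdgfb depended on the probe. With the probe used, it read 4.50 and 3.16 without and 2.87 and 1.66 with DOX in d1 BC, a difference of -1.56 (SE 1.10). In SM with DOX it read 0.00 and 4.59, the higher on the slide 3 array with the endothelial markers, and the difference was -0.80 on all arrays, -2.40 within one slide and -0.05 within the other. Without the 2 SM arrays with high endothelial markers it was -2.33 (SE 0.86, adjusted p = 1), and without SM DOX replicate 1, the lower DOX array, it turned to 1.49. With DOX it read 4.84 and 4.35 at FLK1+ 5h, 3.57 and 5.43 in HE1, 3.99 and 4.59 in HE2 and 2.70 and 3.53 in HP, which overlapped with the untreated arrays. The mean over the 6 populations was -0.32 (SE 0.44, adjusted p = 0.802) and turned to 0.07 without SM DOX replicate 1. The other probe read -1.94, -2.48 and -1.62 in SM against -3.82 and -3.88 with DOX. It likewise read -1.40 and -0.78 in d1 BC against -3.06 and -2.24, and -2.36 and -2.34 in HP against -3.93 and -3.0. At FLK1+ 5h, where the arrays of replicate 1 lay on different slides, it read 1.02 and 0.87 against -1.02 and 0.46. Its DOX arrays lay below the untreated ones in these 4 populations, and overlapped with them in HE1 and HE2. In SM its difference was -1.84 (SE 0.77, limma unadjusted p = 0.0268, adjusted p = 0.999). Its mean over all populations was -1.26 (SE 0.34, limma unadjusted p = 0.00151, adjusted p = 0.201). In HE2 and HP the sign differed between the probes (0.82 and 0.27 against -1.01 and -1.11).

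**Figure D5:**
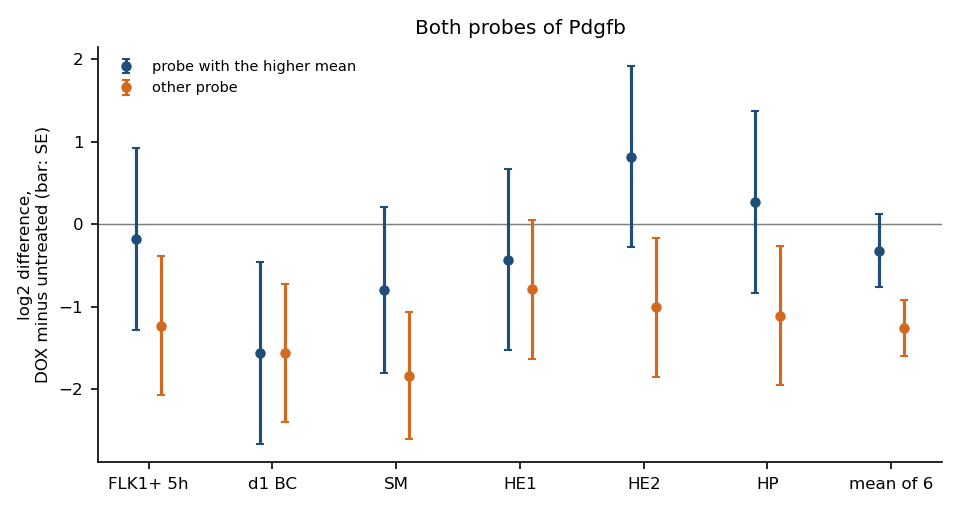
Log2 difference, DOX minus untreated, of the Pdgfb probe with the higher mean (blue) and of the other Pdgfb probe (orange) in 6 populations and in their mean, with the standard error as a bar. The other probe lies below 0 in all 6, between -1.84 and -0.79, whereas the first lies at 0.82 in HE2 and 0.27 in HP.

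Hbegf, the EGF-type ligand that was measured in every population, read 2.32 and 2.69 with DOX in d1 BC against 3.64 and 3.84 without. This difference, -1.23 (SE 0.75; -1.31 and -1.15 within slides), was the only one of its 6 without overlap. With DOX it read 1.90 and 3.05 at FLK1+ 5h, 0.94 and 2.74 in SM, -0.13 and 1.14 in HE1, -1.30 and -0.35 in HE2 and -1.42 and -0.50 in HP. The differences there were -0.57, -0.70, -0.64, 0.43 and -0.39, each smaller than its standard error or close to it, and each turned sign or reached 0 in at least 1 setting that left out an array. Within slides they were -0.10 at FLK1+ 5h, -0.55 and -1.75 in SM and -0.91 and -0.36 in HE1. In HE2 they were 0.49 and 0.37 and in HP 0.05 and -0.83. In SM it was -1.22 (adjusted p = 1) without the 2 SM arrays with high endothelial markers. The mean over the 6 populations was -0.52 (SE 0.30, adjusted p = 0.665).

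The remaining genes were Pdgfa, Pdgfrb and Egfr. Pdgfa with DOX read 5.66 to 6.28 at FLK1+ 5h, 3.82 to 4.48 in d1 BC, 2.70 to 4.52 in SM, 1.61 to 3.08 in HE1, -0.15 to 1.06 in HE2 and 0.00 to 1.50 in HP. Its differences ranged from -0.23 at FLK1+ 5h to 1.32 in HP, the latter against 1 untreated array. In HP it was 0.57 within the slide of that array and 0.68 with the other probe, which measured both. In SM it was 0.08 and turned to -1.06 (adjusted p = 1) without the 2 SM arrays with high endothelial markers. In HE1 it was -0.35 within slide 1 and 2.44 within slide 3, the latter with HE1 DOX replicate 2, the array with little Tek. The mean was 0.47 (SE 0.31, adjusted p = 0.685).

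Pdgfrb was lower with DOX in d1 BC (-0.76) and SM (-0.57) and higher at FLK1+ 5h (0.17), in HE1 (1.07), in HE2 (1.46) and in HP (1.40). In HE2 it read -2.57 and -1.32 with DOX, and in HP 0.32 and 1.03, above the untreated arrays in both. Within slides the differences were 1.00 and 1.92 in HE2 and 1.43 and 1.37 in HP, the 1.92 with HE2 DOX replicate 2 and the 1.43 with HP DOX replicate 1. In HE1 they were -0.26, and 2.41 with HE1 DOX replicate 2. The sign at FLK1+ 5h turned with median scaling, with the slide as a fixed block and without FLK1+ 5h replicate 2 or FLK1+ 5h DOX replicate 1, and that in HE1 turned without HE1 replicate 2. The mean was 0.46 (SE 0.32, adjusted p = 0.688).

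Egfr read -0.94 and -0.82 with DOX at FLK1+ 5h, 0.76 and 0.38 in d1 BC and 1.03 and 0.67 in SM, below all untreated arrays in each of these 3 populations, with differences of -0.67, -0.77 and -0.74. Within shared slides they were -0.18 at FLK1+ 5h, -0.53 and -1.01 in d1 BC, and -0.41 and -0.60 in SM. At FLK1+ 5h the arrays of replicate 1 lay on different slides. The differences were -0.30 in HE1, 0.90 in HE2 and 0.46 in HP, with a mean of -0.19 (SE 0.25, adjusted p = 0.794). The other Egfr probes gave 0.21 and 0.30 at FLK1+ 5h, 0.04 and -0.46 in HE2 and -1.09 and 0.50 in HP, and lay below 0 in d1 BC, SM and HE1. In SM the probe used gave -0.82 (adjusted p = 1) without the 2 SM arrays with high endothelial markers, where Pdgfra gave 1.12 and Pdgfrb -0.71 (adjusted p = 1 for both). The sign in HE1 turned without HE1 replicate 1, and that in HP turned with the mean of all probes and without HP replicate 1 or HP DOX replicate 2. Counted over genes, groups did not overlap for 5 of 7 members in d1 BC, beside 28.1% of all genes tested, for 2 in FLK1+ 5h (34.7%), SM (10.5%), HE2 (34.3%) and HP (39.9%), and for 0 in HE1 (17.2%).

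Beyond the ligands and receptors, 56 genes of the same pathways were listed by role, namely 8 other EGF family ligands, 4 other receptors, 9 genes of ligand release and activation, 21 of signal relay and 14 of feedback and attenuation. With DOX 0 of the 46 to 52 tested were called in any population or mean, and between 0 and 4 had an unadjusted limma p under 0.05, beside 1.16% to 8.35% of all genes. The 4 stood in the mean over 6 populations, beside 7.83% of all genes. In the mean over 6 populations these were led by Plat, tissue plasminogen activator, at -1.86 (SE 0.53, adjusted p = 0.256) and Plau, urokinase, at -0.92 (SE 0.28, adjusted p = 0.317). Both encode proteases, the product of Plat activates PDGF-C, and the pair was singled out after its values were seen. Among genes whose groups did not overlap, the differences furthest from 0 were those of Adam12 (1.99, SE 0.79, adjusted p = 0.948), a protease that was above background on 1 of 2 untreated arrays, and the EGFR inhibitor Errfi1 (-0.97, SE 0.62, adjusted p = 1) at FLK1+ 5h. In d1 BC they were those of the phosphatase Dusp5 (-1.56, SE 1.25, adjusted p = 1) and of Plat (-1.44, SE 1.32, adjusted p = 1). In SM they were those of Plau (-1.71, SE 0.63) and the kinase Src (-1.48, SE 0.60), both at an adjusted p of 0.999. None of these passed the test. In HE1 the ligands Egf (1.28, SE 0.56) and Nrg4 (-1.27, SE 1.01) differed most, both at an adjusted p of 1, and in HE2 the exchange factor Sos1 (1.72, SE 0.78) and the feedback inhibitor Spry2 (1.39, SE 0.57), both at an adjusted p of 0.568. In HP, Plat and Dusp5 were not well above background on the DOX arrays and at least 2.67-fold and at least 2.76-fold lower there (adjusted p = 0.988 for both). Each bound is the ratio of the untreated mean to the lowest signal well above background, or the probe's own signal where higher, on the DOX arrays.

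Along the untreated populations 14 of 52 pathway genes tested differed in level, beside 17.9% of all genes. They were 2 of 5 other EGF family ligands (Epgn and Nrg1), 1 of 3 other receptors (Pdgfrl, a receptor-like gene), 4 of 9 release genes (Adam10, Adam12, Plat and Plau), 3 of 21 relay genes (Pik3r1, Braf and Stat3) and 4 of 14 feedback genes (Spry2, Errfi1, Lrig1 and Lrig3). In single steps 2 of 50 were called from FLK1+ to FLK1+ 5h, beside 2.72% of all genes. Rhbdf1, which encodes an inactive rhomboid that takes part in the maturation of the protease ADAM17, rose by 2.14 (SE 0.55, adjusted p = 0.0441), and Lrig1, an inhibitor of EGF receptors, fell by 1.77 (SE 0.46, adjusted p = 0.0458). From d1 BC to HE1 1 of 50 was called, beside 3.17% of all genes: Pik3r1, a regulatory subunit of PI3-kinase, which rose by 2.07 (SE 0.44, adjusted p = 0.014). From HE1 to HE2 1 of 47 was called, beside 2.33% of all genes: the feedback inhibitor Spry1, which rose by 2.70 (SE 0.70, adjusted p = 0.0496) where Pdgfra and Pdgfrb fell. In the other 4 steps 0 of the 48 to 50 tested were called, with 3 (FLK1+ 5h to d1 BC), 1 (d1 BC to SM), 8 (SM to HE1) and 0 (HE2 to HP) at an unadjusted limma p under 0.05. Of all genes 1.43%, 0.255%, 0.543% and 0.00395% were called in these steps, in the same order. An unadjusted limma p under 0.05 was reached by 10.6%, 5.91%, 8.57% and 5.97% of all genes. Without a call, the differences furthest from 0 among genes whose groups did not overlap were those of the receptor Erbb3, not well above background in d1 BC and at least 2.5-fold lower there than in FLK1+ 5h (adjusted p = 0.423), and of Pdgfrl (1.45, SE 0.61, adjusted p = 0.38). From d1 BC to SM they were those of the ligand Epgn (1.87, SE 0.67, adjusted p = 0.503) and of Hras (-1.30, SE 0.93, adjusted p = 0.998), a relay GTPase. From SM to HE1 they were those of the ligands Nrg4 (2.36, SE 0.92, adjusted p = 0.36) and Nrg1 (2.29, SE 0.83, adjusted p = 0.288), and from HE2 to HP those of Dusp5 (1.44, SE 1.25, adjusted p = 0.886) and Rhbdf2 (1.42, SE 0.68, adjusted p = 0.826).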

How the data were processed

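Single-channel Agilent arrays, on 5 slides, measured RNA of 27 samples in 13 groups. The processed spot signals that the authors deposited are intensities, read with Agilent Feature Extraction (10.7.1.1 in the submitters' processing notes, 10.7.3.1 in the file headers), corrected for background within each array only. Median spot signals and local backgrounds, also deposited as intensities, served an alternative. The authors' processed values are log2 values normalized between arrays, and in all 27 columns they follow their own array best. How they were scaled is not given in the sources used here. No column belonged to another series (0 such columns).

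Outlier spots were removed (832 probe values were missing for it) and spots of a probe were averaged. Of 55681 probes that were not controls, 26582 were named from RefSeq, and the probe with the highest mean was kept for each gene. Log2 values were centred on the 75th percentile per array. A mean per group was fitted in limma 3.58.1 (lmFit, eBayes; R 4.3.3), and the residual and prior degrees of freedom were 14 and 4.34. Testing a gene required every array of 1 of the groups compared to read its probe well above background. Benjamini-Hochberg adjustment was over all genes tested, and a gene was called at an adjusted p under 0.05 and at least 2-fold. Tables and figures were made with data.table (1.17.8), pandas 2.3.3, numpy 2.4.6 and matplotlib 3.10.9 in Python 3.11.15. The model was tested on simulated data.

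All 10 genes are named. Their differences were followed under other settings where they were at least 1 on the log2 scale with an unadjusted p under 0.05. For each gene tested, the 3 genes most like it over 13 group means are named. Of other pathway genes, those called are named, or the 2 largest without overlap between groups where a comparison had no call, and Plat and Plau over 6 populations were chosen after their values were seen. Members and lists were chosen with earlier results of these data known. The other settings were the background correction, scaling, the authors' values, filters, probe choice, the replicate number and the slide as blocks, the variance model and leaving out each array. The setting without the 2 SM arrays with high endothelial markers, and a crossed pairing, were chosen after seeing the data.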

Additional observations from a re-analysis of the deposited data

How the results depend on the processing

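With DOX, 0 members were called in the 6 populations summed and in either mean under every setting run. For the 7 steps between untreated populations the sum was 5 calls, and no followed difference changed sign in any setting run. Followed differences had been chosen for their size and p, which makes a change of sign unlikely. Differences that were not followed did change sign, such as that of Egfr from HE2 to HP in 6 of 42 settings. The sum was 10 with normexp background correction, 9 with quantile normalization, 2 with median scaling, 14 with the authors' processed values, 3 with no filter on dim probes, 1 when every group compared had to be above background, 15 with the slide as a random block, 13 with a mean-variance trend, 18 with array quality weights and 3 with only the groups compared. It was 6 with the mean of all probes and with the slide as a fixed block. The cause was not tested, except that fewer genes or arrays entered under the stricter filter and the fit of the groups compared alone. Calls over all genes also moved with the setting. Without the shares of all genes beside them, these sums do not set the members apart. Replicate numbers were not shown to pair samples, since deviations of equal number correlated at -0.13 at FLK1+ 5h and between 0.15 and 0.55 elsewhere; with the replicate block the sum was 7, the steps of Hbegf from d1 BC to HE1, from HE1 to HE2 and from FLK1+ to FLK1+ 5h among them, and with the FLK1+ 5h numbers crossed it was 8. Leaving out 1 array gave 2 to 9. It was 2 without any FLK1+ or untreated FLK1+ 5h array, 3 without any d1 BC, FLK1+ 5h DOX or d1 BC DOX array or SM replicate 1, 8 without SM replicate 2, and 9 without HE1 replicate 1 or either SM DOX array. Without the SM and SM DOX arrays with high endothelial markers it was 13. The 6 members whose levels differed among populations became 3 when every group had to be above background. Signals near background limit Pdgfd, Areg and Ereg in all groups and Pdgfra, Pdgfrb and Pdgfc in HE2, and Pdgfra in HP.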
